A study of Mus musculus with 10 samples.

Results

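The glycolysis and hypoxia response genes are a set of 32 mouse genes, chosen by symbol, that code for the enzymes of glycolysis, the subunits of lactate dehydrogenase, the oxygen-regulated subunit of the hypoxia-inducible factor, 2 of the oxygen-sensing hydroxylases and 12 genes known to respond to low oxygen. Of these, 29 were measured here among 12394 genes. Eno1, Gpi1 and Ankrd37 were not analysed here. The 29 were 13 glycolytic enzymes, both lactate dehydrogenase subunits, 3 oxygen-sensing genes and 11 hypoxia response genes. No filter on low values was applied, so all 29 were tested.

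RNA was measured on 10 single-colour Affymetrix arrays, each hybridised with 100 ng of total RNA from 1 population of cells sorted from mammary glands or mammary tumours of the mouse strain FVB/N. Control fibroblasts (COF, 3 arrays) came from wild-type (WT) glands. Cancer-associated fibroblasts (CAF, 3 arrays), cancer stem cells (CSC, 2 arrays) and the population titled TEC (2 arrays) came from Wnt-Met mammary tumours of genotype WAPCre-DNbcatn;HGF, in which Cre recombinase is driven by the promoter of the milk protein gene Wap, so that recombination is tied to cells that use this promoter. The design named 3 comparisons, CAF with COF, CSC with TEC and CAF with CSC, and no treatment, time or age was given. In 1 label field the TEC samples read TEFs. How the cells were gated, and whether glands or tumours of several mice were pooled, is not stated in the labels used here. Nor do the labels state that each array of a group had a mouse of its own, and p-values thus reflect the spread among these samples alone.

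Glycolysis splits glucose into pyruvate in a chain of enzyme steps, and lactate dehydrogenase interconverts pyruvate and lactate. Hypoxia-inducible factors are transcription factors whose alpha subunit is hydroxylated by the EGLN prolyl hydroxylases when oxygen is present, bound by VHL and degraded. When oxygen falls the subunit persists, pairs with ARNT and activates genes whose regulatory DNA holds the core motif ACGTG or GCGTG, among them most glycolytic enzymes, Vegfa, Bnip3, Adm and Egln3. The transcript of Hif1a itself is not a measure of this activity, which is set mainly at the level of the protein. In tumours both the cancer cells and the fibroblasts of the stroma can use glycolysis.

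All values are on the log2 scale of RMA, a method that corrects background, puts the arrays on 1 distribution and gives 1 summary value per probe set. A difference of 1 is a change by a factor of 2. Each gene is represented by 1 probe set, and levels of different genes are not compared. The medians of the arrays lay between 6.89 and 7.02. Differences were tested with limma over all 10 arrays, with p-values adjusted over all 12394 genes, and an adjusted p under 0.05 counted as passing. Errors of differences are standard errors (SE).

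The populations differed in markers of other cell types. Of 16 pan-fibroblast genes the median log2 value was 13.52 to 13.91 on the 6 fibroblast arrays and 9.49 and 9.19 in CSC. In TEC it was 9.69 on replicate 1 and 12.01 on replicate 2, so the TEC arrays stood apart in this list. The median of 18 pan-epithelial genes was 12.01 and 11.94 in CSC, 9.11 and 9.32 in TEC and 5.70 to 6.90 in the fibroblasts. Leukocyte genes were high in both populations that carry epithelial genes: the median of 12 was 13.01 and 12.61 in TEC, 10.68 and 10.03 in CSC, and 5.22 to 5.63 in COF and 6.33 to 7.64 in CAF. Macrophage genes had medians of 11.50 and 11.31 in CSC, with 10.84 and 10.74 in TEC, while the fibroblast arrays had 5.28 to 6.24. TEC and CSC are therefore named here as sorted and labelled populations, without a cell type. In bulk samples of this kind, fewer cells of a type and less RNA per cell cannot be told apart. The 3' minus 5' log2 difference of Gapdh, a sign of RNA quality, was 0.24 to 0.30 in TEC and CSC and 0.05 to 0.15 in the fibroblasts. That of a second control gene, Actb, did not follow this order. It was 0.32 and 0.46 in TEC, 0.63 and 0.62 in CSC and 0.59 to 0.76 in the fibroblasts. The part of these differences in the results that follow was not tested.

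Between CAF and COF, 8 of the 29 genes were higher in CAF, where 18.1% of all genes were. They were Ddit4, Bnip3, Pkm, Tpi1, Pgk1, Hif1a, Gapdh and Pgam1. Another 4 were lower in CAF, Pfkp, Ldhb, Hk2 and Hk1, where 16.7% of all genes were, and 17 did not pass. The median difference of the 29 was 0.12, against 0.02 for all genes. The count of 12 fell to 7 without CAF replicate 2 or without CAF replicate 3. It was 17 without either TEC array. These differed most from each other, the differences of single genes having an SD of 0.55, against 0.14 to 0.22 between CAF arrays, and enter the pooled error. Leukocyte markers moved with this comparison: 9 of 12 were higher in CAF, as were 10 of 16 macrophage, 11 of 18 pan-epithelial and 14 of 19 proliferation and 5 of 12 neutrophil and mast cell markers. Of 10 adipocyte markers 5 were lower in CAF and none higher, and none of 16 pan-fibroblast markers passed.

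Between CSC and TEC, 4 of the 29 genes were higher in CSC, Aldoc, Ldhb, Ndrg1 and Pfkm, where 26.6% of all genes were. A further 13 were lower in CSC, where 20.1% of all genes were: Egln3, P4ha1, Bnip3, Pfkp, Eno2, Mxi1, Hif1a, Pgam1, Aldoa, Pkm, Gapdh, Higd1a and Pgk1. The remaining 12 did not pass. Fitted on the 4 arrays of the comparison alone, 3 were higher and 8 lower, with the calls of Pfkm, Aldoa, Gapdh, Pgk1, Pkm and Higd1a lost. The median difference was -0.42, against 0.00 for all genes. With a second quantile normalization the split was 6 higher and 11 lower. In the same comparison all 18 pan-epithelial markers were higher in CSC, and all 12 leukocyte, 11 of 12 neutrophil and mast cell and 9 of 16 pan-fibroblast markers were lower. Macrophage markers were mixed: of 16, 5 were higher and 7 lower in CSC.

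Between CAF and CSC, 9 of the 29 genes were higher in CAF, where 33.4% of all genes were: P4ha2, P4ha1, Adm, Hk2, Eno2, Vegfa, Hif1a, Pfkm and Bnip3. Lower in CAF were 14, where 33.1% of all genes were: Aldoc, Egln3, Hk1, Mxi1, Pkm, Ldhb, Ddit4, Gapdh, Tpi1, Car9, Pfkl, Ldha, Pdk1 and Aldoa. The other 6 did not pass. The median difference was -0.26, against 0.01 for all genes. Centring each array on its median moved the median of all genes to 0.178, with 5098 genes higher and 3223 lower, and that of the members to -0.09. The same centring moved the median of all genes between CSC and TEC to -0.118 and that of the members to -0.54. All 16 pan-fibroblast markers were higher in CAF, and all 18 pan-epithelial, 12 leukocyte and 16 macrophage markers were lower, as were 14 of 19 proliferation markers. CAF arrays enter both this comparison and that with COF, and CSC arrays enter this one and that with TEC.

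By group means, 11 of the 29 genes were highest in TEC, 10 in CSC, 4 in CAF and 4 in COF. COF held the lowest mean for 14, CSC for 7, TEC for 5 and CAF for 3. The same counts were not taken over all genes, so they are not read as particular to the 29. Relative to each gene's mean over the 10 arrays, the median of the glycolytic enzymes was -0.40 to -0.50 on the COF arrays, -0.05 to -0.19 on the CAF arrays, 0.24 and 0.35 in CSC and 0.63 and 0.88 in TEC. The hypoxia response genes had medians of -0.10 to -0.03 in COF, 0.12 to 0.40 in CAF, -0.04 and 0.18 in TEC and -0.22 and -0.17 in CSC. For all genes the median was -0.12 to 0.03 over the 10 arrays.

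**Figure D1:**
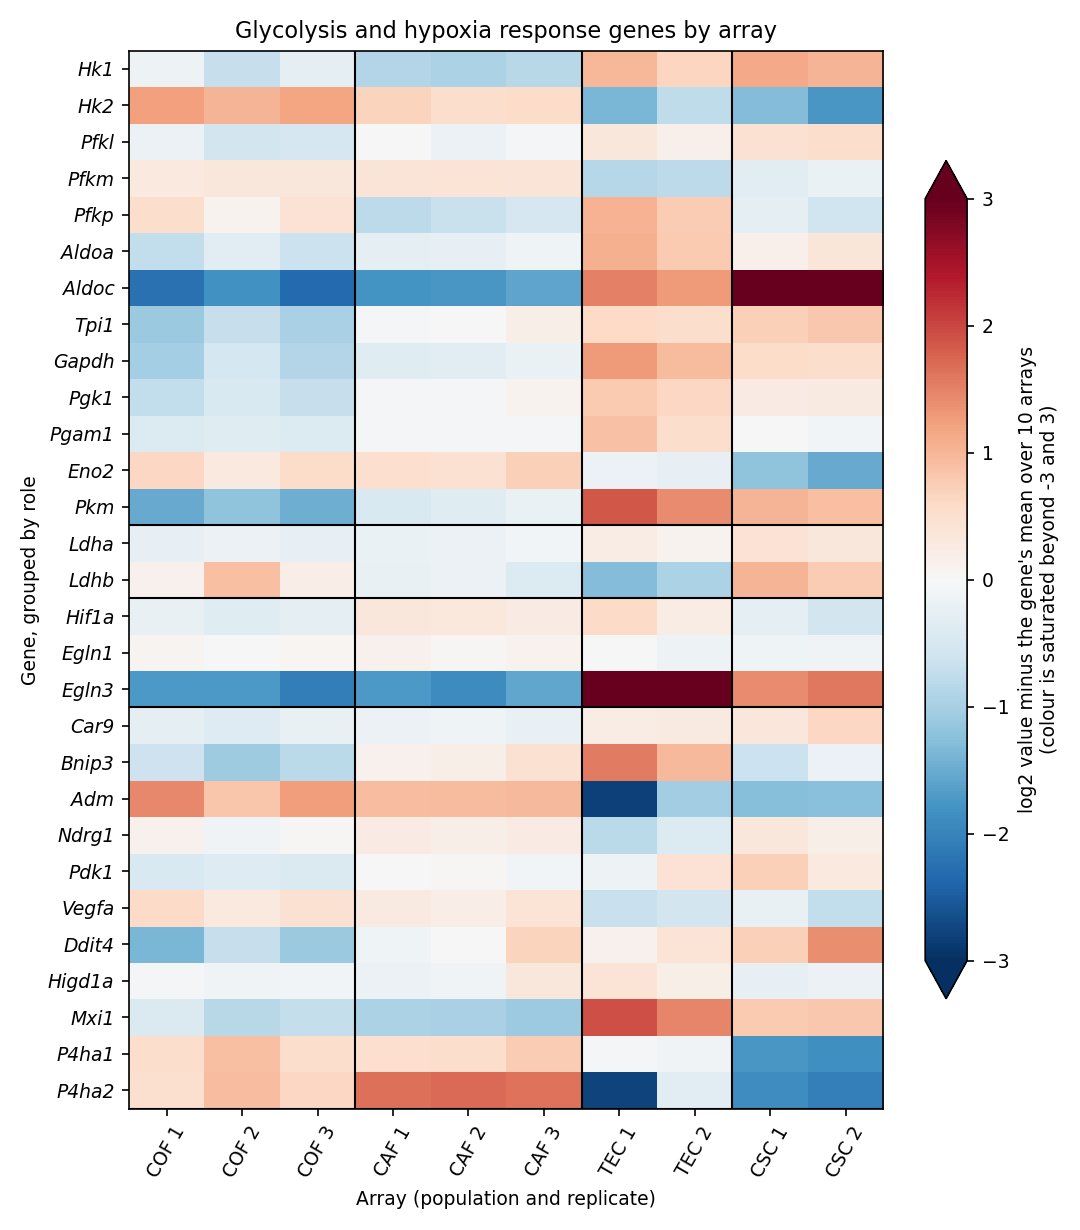
Log2 value of each of the 29 genes on each of the 10 arrays, as the difference from the gene's mean over all arrays (red higher, blue lower), with genes grouped by role from the glycolytic enzymes at the top to the hypoxia response genes at the bottom. Most glycolytic enzymes are blue on the COF arrays and red on the TEC arrays, while Hk2, Adm, P4ha1 and P4ha2 are red on the fibroblast arrays, and Aldoc spans the widest range, 6.90.

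**Figure D2:**
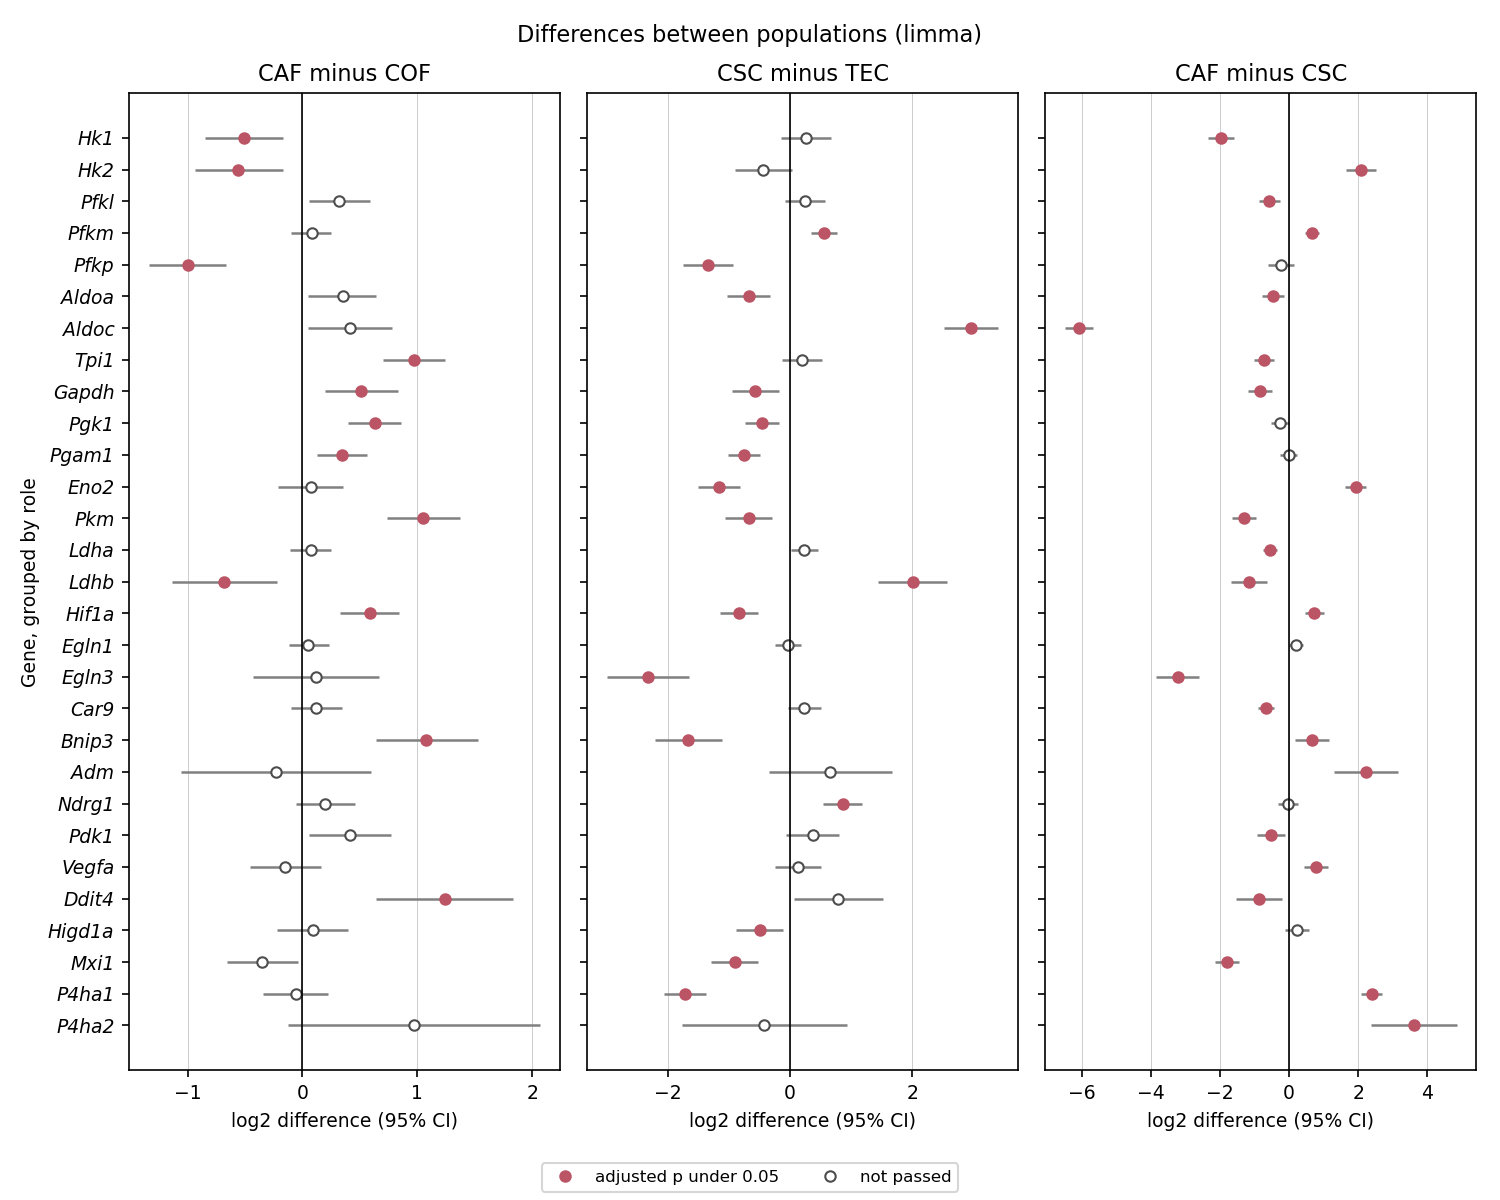
Log2 difference (points) with its 95% confidence interval (bars) for each of the 29 genes in the 3 comparisons, 1 to a panel. Filled points passed at an adjusted p under 0.05 and open points did not. The horizontal scale differs between panels, and the longest distance from 0 is that of Aldoc in CAF minus CSC, -6.08.

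The hexokinases, which trap glucose in the cell by phosphorylating it, were divided between the populations. Hk1, the form found in most tissues, was high in the tumour populations TEC and CSC. Hk2, the inducible form that hypoxia-inducible factors are known to activate, was high in both fibroblast groups. In replicate order, Hk1 had log2 values of 9.30, 8.75 and 9.15 in COF, 8.56, 8.51 and 8.60 in CAF, 10.44 and 10.08 in TEC, and 10.59 and 10.46 in CSC. No CAF array reached a CSC array, and Hk1 was lower in CAF than in CSC by 1.97 ± 0.17 on the log2 scale (3.91-fold; adjusted p = 9.56e-06). Hk2 had values of 13.16, 12.95 and 13.10 in COF, 12.60, 12.46 and 12.47 in CAF, 10.55 and 11.17 in TEC, and 10.64 and 10.19 in CSC. Every fibroblast array lay above every TEC and CSC array. Hk2 was higher in CAF than in CSC by 2.09 ± 0.19 (4.27-fold; adjusted p = 1.49e-05).

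Both hexokinases were also lower in CAF than in COF, without overlap of the arrays. The difference was -0.51 ± 0.15 for Hk1 (adjusted p = 0.0257) and -0.56 ± 0.17 for Hk2 (adjusted p = 0.0307). Both calls were lost when any CAF array, COF replicate 1 or COF replicate 3 was left out, with adjusted p-values up to 0.0966 for Hk1 and 0.099 for Hk2. Between CSC and TEC neither passed. For Hk2 the CSC minus TEC difference of -0.44 ± 0.21 passed without CSC replicate 1 (-0.67) or without TEC replicate 1 (-0.75).

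Of the 3 phosphofructokinase subunits, which together catalyse the committed step of glycolysis, Pfkp is described first. Its log2 values were 10.61, 10.18 and 10.52 in COF, 9.30, 9.41 and 9.59 in CAF, 11.14 and 10.84 in TEC, and 9.81 and 9.50 in CSC. The CAF arrays lay below all COF arrays, and the CSC arrays below both TEC arrays. Pfkp was lower in CAF than in COF by 1.0 ± 0.15 (2.01-fold; adjusted p = 9.96e-04) and lower in CSC than in TEC by 1.34 ± 0.18 (2.53-fold; adjusted p = 3.45e-04). Pfkm, the muscle form, was in contrast higher in the fibroblasts, at 7.96 to 8.08 on all 6 arrays, against 7.32 and 7.47 in CSC and 6.79 and 6.88 in TEC. It was higher in CSC than in TEC by 0.56 ± 0.09 (adjusted p = 0.00118) and higher in CAF than in CSC by 0.66 ± 0.09 (adjusted p = 1.34e-04). Pfkl, the liver form, ranged from 7.21 to 8.28 and, with the probe set used, passed between CAF and CSC alone, with -0.57 ± 0.13 (adjusted p = 0.00401). Its second probe set passed in all 3 comparisons.

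Aldolase C had the widest range of the 29 genes. Aldoc, the brain-type isoform of the enzyme that splits fructose bisphosphate, had values of 4.65, 5.08 and 4.55 in COF, 5.09, 5.13 and 5.30 in CAF, 8.40 and 8.17 in TEC, and 11.05 and 11.45 in CSC. CSC lay above TEC, and TEC above both fibroblast groups, without overlap. COF and CAF nearly touched, at 5.08 and 5.09, and did not pass the test (CAF minus COF 0.41 ± 0.16, adjusted p = 0.0774). In the second probe set COF and CAF overlapped, with a difference of 0.05 ± 0.12 (adjusted p = 0.81). CSC exceeded TEC by 2.97 ± 0.20 (7.81-fold; adjusted p = 1.07e-05) and CAF by 6.08 ± 0.18 (67.5-fold; adjusted p = 3.42e-08). The fibroblast values lay near the lower quartile of the arrays, 5.05 to 5.26, and 5 of the 10 arrays were below it, so the size of the second difference depends on the background level. Aldoa, the ubiquitous isoform, had a narrower range of 11.11 to 12.91. It was lower in CSC than in TEC by 0.68 ± 0.16 (adjusted p = 0.00645), and lower in CAF than in CSC by 0.47 ± 0.14 (adjusted p = 0.0173). The second call was lost without CAF replicate 1 (adjusted p = 0.0532) or CSC replicate 2 (adjusted p = 0.119).

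Of the 13 glycolytic enzymes, 3 were lower in CAF than in COF, Pfkp, Hk2 and Hk1 (23.1%, against 16.7% of all genes). Another 5 passed as higher (38.5%, against 18.1% of all genes): Tpi1, Gapdh, Pgk1, Pgam1 and Pkm. At earlier steps Aldoc, Aldoa and Pfkl differed by 0.41, 0.35 and 0.32, close to the 0.34 of Pgam1. These did not pass (adjusted p = 0.0774, 0.0671 and 0.0594). A second probe set of Pfkl did, with 0.81 (adjusted p = 0.00352). Other probe sets of Aldoa gave 0.41, 0.34 and 0.34, of which the first passed (adjusted p = 0.0469). Tpi1, which interconverts the triose phosphates, had values of 10.05, 10.49 and 10.20 in COF, 11.13, 11.18 and 11.34 in CAF, 11.77 and 11.69 in TEC, and 11.88 and 11.98 in CSC. All CAF arrays exceeded all COF arrays and stayed below the TEC and CSC arrays. The rise from COF to CAF was 0.97 ± 0.12 (1.96-fold; adjusted p = 4.02e-04).

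Pgk1, the kinase that yields the first ATP of the pathway, had values of 11.10, 11.38 and 11.14 in COF, 11.80, 11.78 and 11.94 in CAF, 12.63 and 12.47 in TEC, and 12.08 and 12.11 in CSC. With this probe set the 4 groups did not overlap, in the order COF, CAF, CSC, TEC. In another, CAF (11.62, 11.60 and 11.81) and CSC (11.71 and 11.77) overlapped. Pgk1 was higher in CAF than in COF by 0.63 ± 0.10 (1.55-fold; adjusted p = 0.00147). It was lower in CSC than in TEC by 0.46 ± 0.12 (adjusted p = 0.0137), which did not pass without TEC replicate 1 (adjusted p = 0.0633). The neighbours CAF and CSC differed by -0.26 ± 0.11 and did not pass (adjusted p = 0.0688). This call depended on the setting. The difference passed with a second quantile normalization (-0.41, adjusted p = 0.01), with array weights (-0.29, adjusted p = 0.042) and on the 2 groups alone (adjusted p = 0.0395). Over the other probe sets it was -0.41 (adjusted p = 0.0158) and -0.06 (adjusted p = 0.678).

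Pkm, the pyruvate kinase of most tissues, had values of 8.80, 9.11 and 8.85 in COF, 9.85, 9.95 and 10.11 in CAF, 12.17 and 11.73 in TEC, and 11.33 and 11.22 in CSC. Its groups did not overlap and stood in the same order as those of Pgk1. Pkm was higher in CAF than in COF by 1.05 ± 0.14 (2.07-fold; adjusted p = 5.72e-04) and lower in CAF than in CSC by 1.30 ± 0.16 (2.47-fold; adjusted p = 7.85e-05). It was lower in CSC than in TEC by 0.68 ± 0.17 (adjusted p = 0.00966), a call lost without CSC replicate 2 or TEC replicate 1.

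Gapdh, often used as a loading control, was not level across the populations. It had values of 11.24, 11.72 and 11.37 in COF, 11.89, 11.91 and 12.06 in CAF, 13.53 and 13.19 in TEC, and 12.81 and 12.77 in CSC. The groups stood apart in the order COF, CAF, CSC, TEC, from a mean of 11.44 ± 0.25 (SD, n = 3) in COF to 13.36 ± 0.24 (SD, n = 2) in TEC. Gapdh was lower in CAF than in CSC by 0.84 ± 0.16 (adjusted p = 0.00118). The step from COF to CAF, 0.51 ± 0.14 (adjusted p = 0.0188), was lost without CAF replicate 2 or 3 or COF replicate 1 or 3. That from CSC to TEC, -0.57 ± 0.17 as CSC minus TEC (adjusted p = 0.022), was lost without either CSC array or TEC replicate 1 and with a second quantile normalization.

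Pgam1, the phosphoglycerate mutase of most tissues, was highest in TEC, at 11.65 and 11.30, and otherwise ranged from 10.35 to 10.75. In CSC it was lower than in TEC by 0.75 ± 0.12 (adjusted p = 7.72e-04). Its rise from COF to CAF was 0.34 ± 0.10 (adjusted p = 0.0218) and was lost without any CAF array or COF replicate 1 or 3. Eno2, the neuronal form of enolase, was 1 of 3 glycolytic enzymes higher in CAF than in CSC (23.1%, against 33.4% of all genes). Lower in CAF were 7 of 13 (53.8%, against 33.1% of all genes). Between CSC and TEC, Eno2 was among the 7 of 13 lower in CSC (53.8%, against 20.1% of all genes). It had values of 7.72, 7.40 and 7.65 in COF, 7.61, 7.55 and 7.83 in CAF, 6.94 and 6.86 in TEC, and 5.89 and 5.59 in CSC. COF and CAF overlapped, TEC lay below both and CSC below TEC. The difference was -1.16 ± 0.15 for CSC minus TEC (2.24-fold; adjusted p = 2.87e-04) and 1.93 ± 0.14 for CAF minus CSC (3.8-fold; adjusted p = 3.70e-06).

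**Figure D3:**
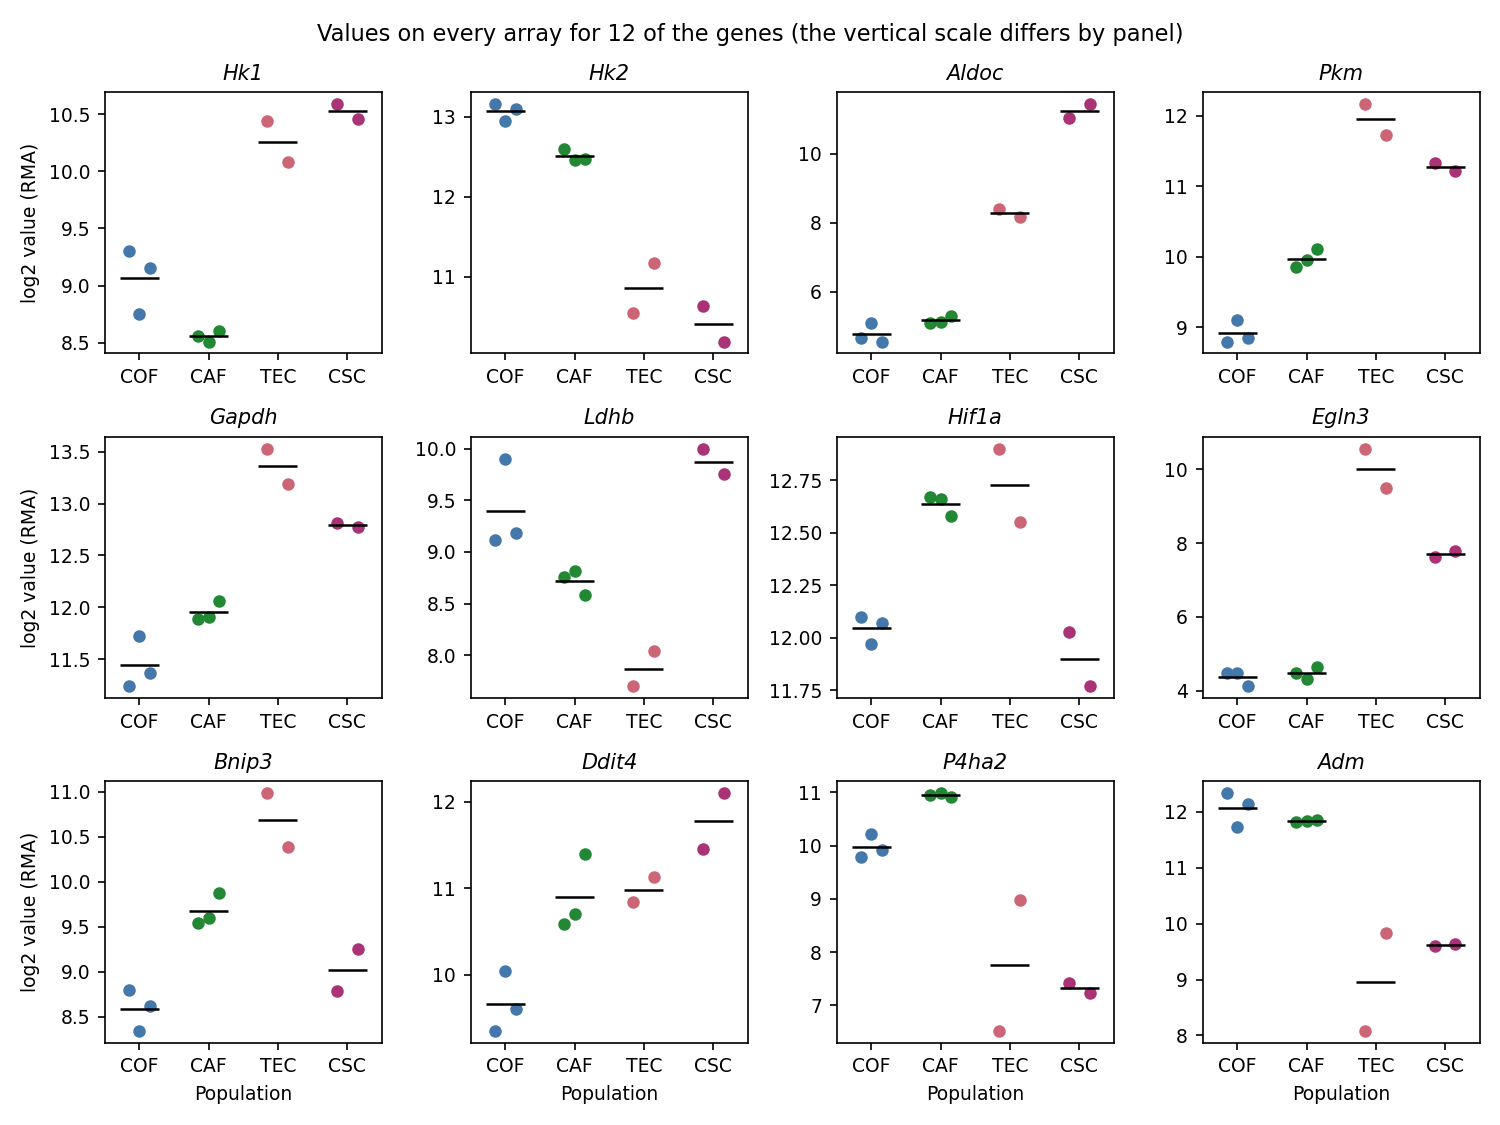
Log2 value on every array (points) and group mean (lines) for 12 of the genes, by population, with a separate vertical scale in each panel. COF and CAF stand above TEC and CSC for Hk2, P4ha2 and Adm and below them for Hk1, Aldoc, Pkm, Gapdh and Egln3. The TEC arrays lie far apart for P4ha2 (6.52 and 8.98) and Adm (8.08 and 9.84).

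The subunits of lactate dehydrogenase differed from one another. Ldha, the form favoured in lactate-producing cells and a known hypoxia target, had a narrow range, whereas Ldhb, the form of oxidative tissues, separated CSC from TEC. Ldha had values of 11.92, 11.98 and 11.93 in COF, 11.97, 11.98 and 12.08 in CAF, 12.39 and 12.27 in TEC, and 12.61 and 12.51 in CSC. Its whole range was 0.68. The fibroblast groups overlapped at their edge, and all 6 lay below TEC and CSC. Ldha was lower in CAF than in CSC by 0.55 ± 0.09 (adjusted p = 5.15e-04). Its CAF minus COF difference was 0.07 with a 95% interval of -0.11 to 0.25.

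Ldhb had values of 9.12, 9.90 and 9.18 in COF, 8.76, 8.82 and 8.58 in CAF, 7.70 and 8.04 in TEC, and 10 and 9.75 in CSC. TEC was the lowest group, and no CSC array fell to a TEC or CAF array. CSC exceeded TEC by 2.01 ± 0.25 (4.02-fold; adjusted p = 2.12e-04) and CAF by 1.16 ± 0.23 (2.23-fold; adjusted p = 0.00166). Ldhb was lower in CAF than in COF by 0.68 ± 0.20 (adjusted p = 0.0288). Leaving out any 1 of the CAF arrays lost that call, with adjusted p-values up to 0.0951, while the 3 other probe sets of Ldhb gave -0.70, -0.91 and -0.79, each with an adjusted p of at most 0.00702.

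Hif1a, the oxygen-regulated subunit, was higher in CAF and TEC than in COF and CSC. Its values were 12.10, 11.97 and 12.07 in COF, 12.67, 12.66 and 12.58 in CAF, 12.90 and 12.55 in TEC, and 12.03 and 11.77 in CSC. All CAF arrays exceeded all COF and CSC arrays, TEC overlapped CAF, and CSC overlapped COF. Hif1a was higher in CAF than in COF by 0.59 ± 0.11 (1.5-fold; adjusted p = 0.00363) and higher in CAF than in CSC by 0.73 ± 0.13 (1.66-fold; adjusted p = 7.22e-04). In CSC it was lower than in TEC by 0.83 ± 0.14 (1.78-fold; adjusted p = 0.00107). Of its 3 other probe sets, 2 gave rises of 1.21 and 0.83 from COF to CAF, and the dimmest, with a mean of 5.38, gave -0.19 ± 0.30 (adjusted p = 0.706). With CAF replicates 1 and 2 and COF replicates 1 and 3, the closest arrays, averaged, the CAF minus COF difference did not pass (adjusted p = 0.0525).

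The hydroxylases that mark the subunit for degradation behaved differently from one another. Egln1, the main oxygen sensor, was the most even of the 29 genes, from 8.60 to 8.88 with the probe set used, which passed in no comparison. Between CAF and CSC it did pass, with 0.21, without either TEC array (adjusted p = 0.0425), and with each array centred on its median (0.37), a second quantile normalization (0.35) or the mean of its probe sets (0.33). Its other probe set passed for CSC minus TEC, with -0.37 (adjusted p = 0.0126), and for CAF minus CSC, with 0.46 (adjusted p = 0.0016). Egln3, the isoform that hypoxia-inducible factors themselves induce, had values of 4.47, 4.48 and 4.12 in COF, 4.47, 4.31 and 4.64 in CAF, 10.56 and 9.48 in TEC, and 7.62 and 7.78 in CSC. On all 6 fibroblast arrays it lay under the lower quartile of the array, and TEC stood above CSC without overlap. Egln3 was lower in CSC than in TEC by 2.32 ± 0.30 (adjusted p = 2.56e-04), and lower in CAF than in CSC by 3.22 ± 0.27 (9.35-fold; adjusted p = 9.61e-06). The size of the latter rests on a fibroblast value near background.

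Among the hypoxia response genes, Bnip3 and Ddit4 rose from COF to CAF. Bnip3, a mitochondrial protein of mitophagy and cell death, had values of 8.80, 8.34 and 8.62 in COF, 9.54, 9.60 and 9.87 in CAF, 10.98 and 10.38 in TEC, and 8.78 and 9.25 in CSC. CAF lay between COF and TEC without overlap, and CSC overlapped COF. Bnip3 was higher in CAF than in COF by 1.08 ± 0.20 (2.12-fold; adjusted p = 0.00279) and lower in CSC than in TEC by 1.67 ± 0.24 (3.17-fold; adjusted p = 4.89e-04). The difference of 0.66 ± 0.22 between CAF and CSC (adjusted p = 0.0248) was lost without CAF replicate 3 (0.56) or CSC replicate 1 (0.42).

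Ddit4, also named Redd1, a stress-induced inhibitor of mTORC1, had values of 9.35, 10.04 and 9.60 in COF, 10.59, 10.70 and 11.40 in CAF, 10.84 and 11.13 in TEC, and 11.45 and 12.10 in CSC. The CAF arrays lay above all COF arrays and below both CSC arrays. CAF replicate 3 was the highest CAF array, as it also was in the leukocyte median, 7.64 against 6.45 and 6.33. The rise from COF to CAF was 1.24 ± 0.26 (2.36-fold; adjusted p = 0.00625), the largest of the 29 genes, and it passed in each setting tried. Ddit4 was lower in CAF than in CSC by 0.88 ± 0.29 (adjusted p = 0.0256), which was lost without CAF replicate 1, CAF replicate 2 or CSC replicate 2 (-0.55).

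Mxi1, a MYC antagonist, was highest in TEC. Its values were 8.72, 8.34 and 8.46 in COF, 8.23, 8.19 and 8.07 in CAF, 11.09 and 10.64 in TEC, and 9.94 and 9.98 in CSC. TEC, CSC and the fibroblasts did not overlap. Mxi1 was lower in CSC than in TEC by 0.91 ± 0.17 (1.88-fold; adjusted p = 0.00199) and lower in CAF than in CSC by 1.80 ± 0.15 (3.47-fold; adjusted p = 1.04e-05).

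The collagen prolyl hydroxylases and Adm, which codes for the vasodilator peptide adrenomedullin, were higher in CAF than in CSC. P4ha1 had values of 10.31, 10.68 and 10.31 in COF, 10.28, 10.31 and 10.53 in CAF, 9.73 and 9.67 in TEC, and 8.03 and 7.93 in CSC. P4ha1 was higher in CAF than in CSC by 2.39 ± 0.14 (5.25-fold; adjusted p = 8.71e-07) and lower in CSC than in TEC by 1.72 ± 0.15 (3.3-fold; adjusted p = 3.34e-05). COF and CAF overlapped.

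P4ha2 had values of 9.78, 10.22 and 9.92 in COF, 10.94, 10.98 and 10.91 in CAF, 6.52 and 8.98 in TEC, and 7.42 and 7.24 in CSC. CAF lay above COF without overlap, and the CSC arrays fell between the TEC arrays. CAF exceeded CSC by 3.61 ± 0.54 (12.2-fold; adjusted p = 3.33e-04). CAF minus COF was 0.97 ± 0.49 and did not pass with the error pooled over all arrays (adjusted p = 0.164). It passed on the 6 fibroblast arrays alone (adjusted p = 5.37e-04) and without either TEC array (adjusted p = 3.62e-04). The CSC minus TEC difference of -0.42 ± 0.60 had no settled sign: it was 0.81 without TEC replicate 2 (adjusted p = 0.00523) and -1.65 without TEC replicate 1 (adjusted p = 1.52e-04).

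Adm had values of 12.33, 11.72 and 12.14 in COF, 11.81, 11.83 and 11.85 in CAF, 8.08 and 9.84 in TEC, and 9.60 and 9.64 in CSC. COF and CAF overlapped and lay above every TEC and CSC array. CAF exceeded CSC by 2.22 ± 0.41 (4.65-fold; adjusted p = 0.00114). As for P4ha2, TEC replicate 2 was the higher TEC array, and it was also the one with the higher pan-fibroblast median, 12.01 against 9.69. Without TEC replicate 2, Adm was higher in CSC than in TEC by 1.54 (adjusted p = 4.29e-04), against 0.66 ± 0.45 with it (adjusted p = 0.26). Without TEC replicate 1 the difference was -0.22 and did not pass, so its sign was not settled.

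Vegfa, the angiogenic growth factor, had values of 11.12, 10.86 and 11.02 in COF, 10.83, 10.76 and 10.96 in CAF, 9.90 and 10 in TEC, and 10.34 and 9.82 in CSC. The fibroblast arrays, with COF and CAF overlapping, lay above all TEC and CSC arrays. Vegfa was higher in CAF than in CSC by 0.77 ± 0.15 (1.71-fold; adjusted p = 0.00187). Between CAF and COF the difference was -0.15 with a 95% interval of -0.46 to 0.16, and between CSC and TEC 0.13 with an interval of -0.25 to 0.51.

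Car9, a carbonic anhydrase widely used as a marker of hypoxic tumour cells, was dim throughout. It had values of 4.68, 4.55 and 4.72 in COF, 4.76, 4.82 and 4.72 in CAF, 5.17 and 5.22 in TEC, and 5.29 and 5.57 in CSC. All 6 fibroblast values were under the lower quartile of their array, and the highest value of all was 5.57, below every array median. Car9 was lower in CAF than in CSC by 0.66 ± 0.11 (adjusted p = 5.26e-04), a difference between values near background.

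Of the 3 remaining genes, Ndrg1, a stress-response gene whose product acts in differentiation, was lowest in TEC, at 11.84 and 12.25, and 12.56 to 12.99 elsewhere. It was higher in CSC than in TEC by 0.86 ± 0.14 (adjusted p = 0.00106). Pdk1, the kinase that inhibits pyruvate dehydrogenase, ranged from 6.54 to 7.71. In CAF it was lower than in CSC by 0.52 ± 0.17 (adjusted p = 0.0249), and this was lost without CAF replicate 1 or 3 or CSC replicate 1 (-0.31). Higd1a, a mitochondrial protein of the respiratory chain, ranged from 10.25 to 10.89. Its CSC minus TEC difference of -0.50 ± 0.17 (adjusted p = 0.0358) was lost without CSC replicate 1 or 2, TEC replicate 1 or COF replicate 1 or 3.

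Of the 29 genes, 18 had several probe sets. In each comparison all probe sets of 13 of these 18 gave the same call, and for none did 2 probe sets give opposite calls. Among the others, calls and in part signs depended on the probe set. A second probe set of Pfkl, with values of 4.85 to 9.04, passed in all 3 comparisons. It rose by 0.81 from COF to CAF (adjusted p = 0.00352), was higher in CSC than in TEC by 0.97 (adjusted p = 0.00262) and differed by -3.18 between CAF and CSC, against 0.32, 0.24 and -0.57 for the one used. That of Pdk1 rose by 1.42 ± 0.18 from COF to CAF (adjusted p = 4.23e-04), against 0.41 ± 0.16 (adjusted p = 0.0703). For CSC minus TEC this probe set of Pdk1 also passed, with 1.19 (adjusted p = 0.00199), against 0.37 for the one used. The mean of the Pdk1 probe sets passed there too, with 0.78 (adjusted p = 0.0113). The other probe sets of Higd1a were higher in CAF than in CSC by 1.37 and 1.57, against 0.22, and gave 0.18 and 0.02 for CSC minus TEC. For Ndrg1 the CAF minus CSC difference was between -0.03 and 1.25 over 5 probe sets, and for Pfkp -0.22 and 0.50 over 2, of which the second passed (adjusted p = 0.0111). The second probe set of Aldoc, dimmer than the first, gave -2.88 for CAF minus CSC.

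**Figure D4:**
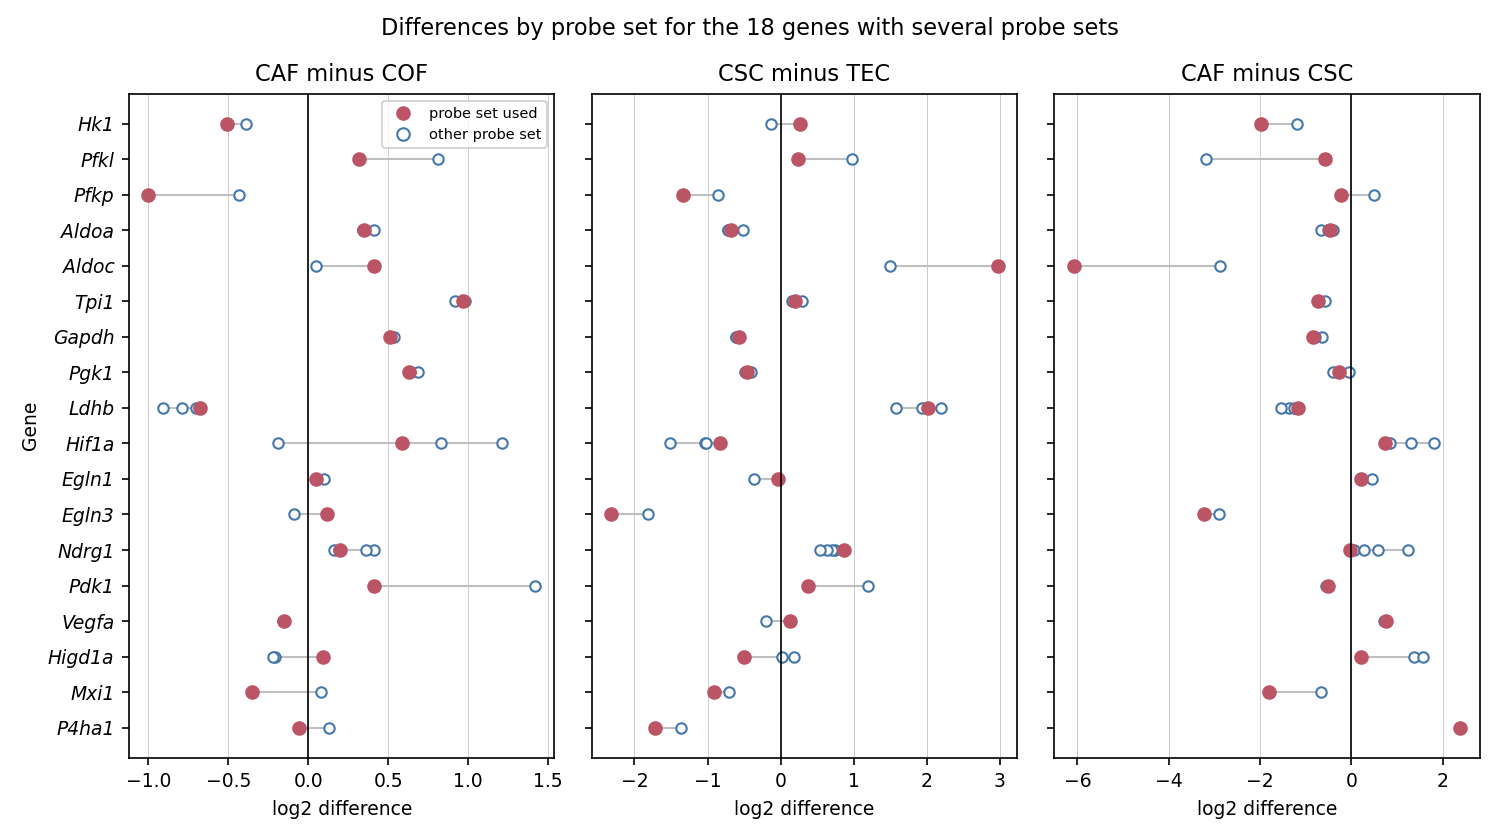
Log2 difference of every probe set (points) of the 18 genes with several probe sets, in the 3 comparisons, 1 to a panel. Filled points are the probe sets used, open points the others, and grey lines join probe sets of a gene. Those of Tpi1, Gapdh and Aldoa lie close together, while those of Pfkl and Aldoc differ by over 2 in CAF minus CSC.

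Other genes of the same pathways were counted from lists of 78 measured genes. Between CAF and COF 10 were higher and 18 lower in CAF, between CSC and TEC 20 higher and 20 lower in CSC, and between CAF and CSC 25 higher and 22 lower in CAF. Of all genes 18.1% were higher and 16.7% lower in the first of these comparisons, 26.6% and 20.1% in the second, and 33.4% and 33.1% in the third. Of 10 glucose and lactate transporters, 1 was higher and 1 lower in CAF than in COF, 3 were higher and 2 lower in CSC than in TEC, and 3 were higher and 3 lower in CAF than in CSC. Slc2a1, the basal glucose transporter, had values of 11.10, 11.15 and 11.15 in COF, 11.13, 11.18 and 11.69 in CAF, 12.22 and 11.95 in TEC, and 12.48 and 11.91 in CSC. TEC and CSC overlapped, and both lay above the fibroblasts. Its level was lower in CAF than in CSC by 0.86 ± 0.21 (adjusted p = 0.00492), a call lost without CSC replicate 1, and the other 2 comparisons did not pass. Slc2a3, the high-affinity transporter of neurons and leukocytes, was lower in CSC than in TEC by 4.84 ± 0.38 (28.6-fold; adjusted p = 2.08e-05), with 12.71 and 12.15 in TEC and 8.15 and 7.03 in CSC. Slc16a3, the lactate exporter of glycolytic cells, was lower by 2.98 ± 0.24 (adjusted p = 2.42e-05). In CSC it had 5.59 and 4.96, near the lower quartile of these arrays, so this size depends on the background level. Slc16a1, the other main lactate carrier, was higher in CSC by 1.31 ± 0.30 (adjusted p = 0.00647), but not on the 4 arrays of the comparison alone. Slc2a9 also passed as higher in CSC, with 7.63 and 7.77 against 5.71 and 5.38 in TEC.

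Enzymes around the pathway also separated CSC from TEC. Pfkfb3, which makes the allosteric activator of phosphofructokinase, was lower in CSC than in TEC by 2.11 ± 0.25 (4.33-fold; adjusted p = 1.57e-04). Eno3, the muscle enolase, was lower by 1.72 ± 0.13 (adjusted p = 1.96e-05). Of 8 genes of pyruvate dehydrogenase, its regulators and the pyruvate carrier, which pass pyruvate to the mitochondria, 7 were higher in CSC and 1 lower, where 26.6% and 20.1% of all genes were. The subunits Pdha1, Pdhb and Dlat were higher by 1.46 ± 0.15, 1.06 ± 0.09 and 1.0 ± 0.11, and the inhibitory kinase Pdk4 by 2.34, while the kinase Pdk3 was lower by 1.40 ± 0.18 (each adjusted p at most 2.61e-04 for the subunits and Pdk3). Slc2a3, Slc16a3 and Pfkfb3 are expressed in leukocytes, whose 12 markers were all lower in CSC than in TEC. Macrophage markers were mixed in this comparison, with 5 of 16 higher and 7 lower in CSC. Whether leukocyte content had a part in the differences of Slc2a3, Slc16a3 and Pfkfb3 was not tested.

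Between CAF and COF, 12 of 37 other hypoxia response genes were lower in CAF and 3 higher, where 16.7% and 18.1% of all genes were. Of the 11 hypoxia response genes described above none was lower and 2 were higher. The difference between these lists was not tested. Hmox1, the heme-degrading enzyme, had values of 12.86, 12.82 and 12.82 in COF and 10.48, 10.30 and 10.13 in CAF. It was lower in CAF by 2.53 ± 0.22 (5.77-fold; adjusted p = 7.81e-05). Edn1, a vasoconstrictor peptide, was lower by 1.60 ± 0.19 (adjusted p = 3.65e-04), Kdr, a receptor for VEGF, by 0.98 ± 0.12 (adjusted p = 3.81e-04), and the glycoprotein Stc2 by 0.73 ± 0.08 (adjusted p = 2.20e-04). Between CAF and CSC, 15 of the 37 were higher in CAF and 8 lower, where 33.4% and 33.1% of all genes were. The collagen lysyl hydroxylase Plod1 was higher by 2.79 ± 0.16 (adjusted p = 7.77e-07) and Igfbp3, which binds insulin-like growth factors, by 5.33 ± 0.59 (adjusted p = 4.79e-05). Tfrc, the transferrin receptor, was lower by 2.55 ± 0.12 (adjusted p = 3.24e-07) and the carbonic anhydrase Car12 by 3.19 ± 0.26 (adjusted p = 7.11e-06).

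Among 11 other components of the factor and its regulation, Epas1, the sister subunit of Hif1a, was higher in CAF than in CSC by 2.26 ± 0.13 (4.77-fold; adjusted p = 8.41e-07), with 7.36, 7.33 and 7.42 in CAF against 5.29 and 4.94 in CSC. The CSC values lay near the lower quartile of their arrays, 5.08 and 5.05, so this size depends on the background level. Cited2, which competes with the factor for its coactivators, was lower in CAF than in CSC by 2.59 ± 0.19 (6.01-fold; adjusted p = 3.96e-06). Arnt, the common partner, was lower in CSC than in TEC by 1.15 ± 0.22 (adjusted p = 0.00228), and so was Vhl, by 0.72 ± 0.14 (adjusted p = 0.00227). Neither passed on the 4 arrays of the comparison alone. Cited2 passed as higher in CSC than in TEC, with 11.63 and 12.10 against 10.64 and 10.38.

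Sequence upstream of the genes was read from RefSeq promoter windows of build GRCm38.p6, using the 250 bases before the annotated start. Of the 29 measured genes 28 had an entry, all but Ndrg1. Both 5-letter cores of the factor, ACGTG and GCGTG, were searched on both strands, where they read CACGT and CACGC. The palindrome CACGTG, the E-box of MYC and related factors, counts once on each strand. At least 1 core stood in the window of 26 of the 28 genes, 92.9%, and of 55.7% of the 9888 genes on the array with an entry. Because some genes have several starts, the share was also taken over windows: 32 of 41, against 50.6% of 12567. The median number of CpG pairs in a window was 13.0 for both. A match describes these letters and is not a binding site. The set was chosen for glycolysis and the response to low oxygen. It holds many known targets of the factor, so this share is no independent result.

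Windows of 5 genes are shown with the cores in capitals, 5' to 3' on the strand of the gene: Bnip3, Ddit4 and Pgk1, which rose from COF to CAF and have several cores, Egln3, which was under the lower quartile in the fibroblasts, and Tpi1, which rose with Pgk1 and has no core in this window. Bnip3 lies at chr7:138909507-138909756 on the minus strand, Ddit4 at chr10:59951771-59952020 on the minus strand, Pgk1 at chrX:106186850-106187099 on the plus strand, Egln3 at chr12:54203875-54204124 on the minus strand and Tpi1 at chr6:124814159-124814408 on the minus strand.
Bnip3: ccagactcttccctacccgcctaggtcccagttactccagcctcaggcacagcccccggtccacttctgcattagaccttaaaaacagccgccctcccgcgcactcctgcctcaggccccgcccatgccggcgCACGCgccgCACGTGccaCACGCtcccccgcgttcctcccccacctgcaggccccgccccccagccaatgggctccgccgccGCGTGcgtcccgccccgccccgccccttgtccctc
Ddit4: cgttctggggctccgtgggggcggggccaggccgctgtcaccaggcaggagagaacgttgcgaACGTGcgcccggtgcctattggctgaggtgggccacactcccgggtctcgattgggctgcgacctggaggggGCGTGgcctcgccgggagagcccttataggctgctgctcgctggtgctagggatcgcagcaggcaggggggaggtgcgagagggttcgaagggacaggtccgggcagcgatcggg
Pgk1: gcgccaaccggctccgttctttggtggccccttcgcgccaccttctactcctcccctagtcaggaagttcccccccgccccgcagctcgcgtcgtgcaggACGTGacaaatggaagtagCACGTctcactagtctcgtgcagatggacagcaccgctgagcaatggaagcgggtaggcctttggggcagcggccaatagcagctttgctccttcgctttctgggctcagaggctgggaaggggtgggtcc
Egln3: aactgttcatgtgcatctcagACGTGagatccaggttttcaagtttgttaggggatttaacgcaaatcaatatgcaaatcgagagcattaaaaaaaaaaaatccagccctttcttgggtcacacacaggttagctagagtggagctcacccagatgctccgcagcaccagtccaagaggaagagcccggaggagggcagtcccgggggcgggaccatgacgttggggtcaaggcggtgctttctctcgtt
Tpi1: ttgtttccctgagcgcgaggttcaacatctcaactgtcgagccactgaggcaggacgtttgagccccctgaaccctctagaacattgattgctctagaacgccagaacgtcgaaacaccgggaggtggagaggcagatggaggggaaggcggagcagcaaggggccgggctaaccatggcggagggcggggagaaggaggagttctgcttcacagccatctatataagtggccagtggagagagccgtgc
Bnip3 has 5 cores, of which 2 are the strands of 1 CACGTG, between 117 and 31 bases before the start. Ddit4 has 2, which begin 187 and 115 bases before it. The 2 cores of Pgk1 begin 150 and 131 bases before the start and point toward each other. The single core of Egln3 begins 229 bases before the start. Eno2, which was lower in CSC than in CAF and TEC, is the other gene with none in this window. Several cores also stood before genes that were lower in CAF than in COF: 3 for Pfkp, 3 in 1 window of Hk1 and 2 for Hk2. Ldhb, also lower, had 1. Ldha, which did not pass between CAF and COF, had 5 in 1 window. A link between the number of cores and the differences was not tested.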

How the data were processed

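The 10 arrays measured RNA of sorted COF, CAF, TEC and CSC cells. The authors deposited log2 values of 22690 probe sets, which per the submitters' processing notes came from RMA (its version is not stated there), and these were not transformed further. Groups and replicate numbers came from the sample titles. The platform annotation gave 20393 probe sets 1 gene symbol, 691 several and 1606 none. Only the first kind was used, with the probe set of the highest mean per gene, which left 12394 genes. The number of arrays limits the precision.

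Group means were fitted over all 10 arrays in R 4.3.3 with limma 3.58.1 (lmFit, eBayes). Tests were two-sided with Benjamini-Hochberg adjustment over all genes. The fit was tested on simulated data. Values on every array are given for the 8 members per comparison with the largest passing difference and no overlap, and for Hif1a, Vegfa, Ldha, Ldhb, Gapdh, Car9, Slc2a1, Hk1 and Hk2. From the other pathway lists up to 4 genes with the smallest adjusted p per comparison were eligible, and Pdk4 was named in addition. Settings varied are listed with their effect in the closing section. The members and lists were chosen with earlier results of these data known.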

Additional observations from a re-analysis of the deposited data

How the results depend on the processing

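Between CAF and COF, 4309 genes passed. Array weights gave 8632, averaging the closest arrays (CAF 1 with 2, COF 1 with 3) 1805, and an adjusted p under 0.01 2638. The 12 members that passed became 22, 6 and 7 in these settings, and 7 to 17 when 1 array was left out. Array weights gave COF replicate 3 a weight of 40.65. Between CSC and TEC, fitting only the 4 arrays moved 5786 genes to 3013 and 17 members to 11. Counts between CAF and CSC stayed within 1.5 times of 8247 genes and 23 members.

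Among values that passed in the fit reported or in the alternative, those that turned sign were P4ha2 in CSC minus TEC without TEC replicate 2 (0.81; -1.65 to 0.81 over arrays left out), Ndrg1 in CAF minus CSC with the mean of its probe sets (0.43), without cross-hybridising probe sets (1.25) and for 2 other probe sets (1.25 and 0.58), and Arnt2 in CAF minus CSC with the mean of probe sets (0.11). Other probe sets, tried after seeing the data, turned Hif1a in CAF minus COF (-0.19), Higd1a in CSC minus TEC (0.18 and 0.02) and Pfkp in CAF minus CSC (0.50). Differences that passed on neither side also turned, as for Adm without TEC replicate 1 (-0.22) and Vegfa over arrays left out (-0.13 to 0.39) in CSC minus TEC, P4ha1 (-0.14 to 0.06) and Higd1a (-0.07 to 0.19) in CAF minus COF, and the 2 further probe sets of Ndrg1 in CAF minus CSC (0.06 and 0.28). The causes were not tested.

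With the replicate number as a block (replicate block), 11, 17 and 21 members passed. Hk2 was lost in CAF minus COF, Gapdh in CSC minus TEC, and Bnip3 and Pdk1 in CAF minus CSC, and Ddit4 was gained in CSC minus TEC. Deviations of COF and CAF arrays with the same number correlated at 0.1274, 0.0063 and -0.0824. These came from different genotypes, so they could not share a mouse. Same-number arrays of tumour populations correlated at -0.0236 and 0.0897 for CAF with TEC and -0.0408 and 0.0909 for CAF with CSC. For TEC with CSC the value was -0.0569. With 2 arrays the deviations of a group mirror each other, so these values cannot decide whether the numbers mark a pairing.

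In every planned setting that tested them, 5 of 8 higher and 1 of 4 lower members of CAF minus COF kept their call, 3 of 4 and 8 of 13 in CSC minus TEC, and 8 of 9 and 11 of 14 in CAF minus CSC. Groups of 2 and 3 arrays limit what can be measured. So do values near background for Car9, Egln3 and Aldoc in fibroblasts, Car12 in CAF, and Epas1 and Slc16a3 in CSC.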

Other observations

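Probe sets with several gene symbols stood outside the comparisons. One that names Hk1 with other genes had log2 values of 13.37 to 13.41 in COF, 13.32 to 13.35 in CAF, 13.02 and 13.15 in TEC and 13.59 and 13.56 in CSC, a narrower spread than that of the Hk1 probe set described above. Of those that name Gapdh with other genes, the brighter had 11.74, 12.17 and 11.82 in COF, 12.34, 12.33 and 12.45 in CAF, 13.87 and 13.55 in TEC and 13.12 and 13.10 in CSC, the same order of groups as the Gapdh probe set used.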
